A study of Mus musculus with 2 samples.

Results

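The 32 genes described here act in the cell division cycle. They are split into 14 genes of DNA replication and 18 genes of mitosis and its control. They were taken by symbol from the 32285 genes of both count matrices, and 32 of 32 were found. The samples were single-cell suspensions of lung (left lobe, lower part, digested with enzymes) from male mice of the outbred ICR stock, aged 6 to 8 weeks. The LPS group received lipopolysaccharide (LPS), a bacterial membrane component that inflames the lung. The LPS_MCZ group was given miconazole (MCZ), a drug of the azole class used against fungi, by the intraperitoneal route on top of LPS. The miconazole dose is 0.2 mg/kg in the sample's label and 1 mg/kg in the protocol. All mice of a group were pooled into 1 library, so there were 2 libraries, no replicate and no test. Treatment, library and mice cannot be told apart here. The sources used here give neither the number of mice nor the LPS dose or timing, and no library of mice without LPS was analysed here.

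A cell copies its DNA in S phase and divides it in mitosis. The MCM proteins form the helicase that opens the DNA, Pcna is the ring that holds the polymerases on it, and a set of enzymes makes the deoxynucleotides. Later, cyclin-dependent kinase 1 with its A and B cyclins starts mitosis, and motor, spindle and kinetochore proteins separate the chromosomes. In the lung, alveolar macrophages are known to renew by local division, whereas neutrophils stop dividing in the bone marrow before they reach the tissue.

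The promoters of the 2 groups of genes are known to differ. E2F proteins bind many replication gene promoters, and the DREAM complex and its partners bind the cell cycle homology region (CHR) of many mitosis genes, often near CCAAT boxes bound by NF-Y. The 130 bases just upstream of the RefSeq transcription start (GRCm38.p6), on the gene's strand and 5′ to 3′, are shown for 4 members, to set the letters of both groups beside those of Cks2, the member with the largest difference between the libraries. They lie at chr1:128359706-128359835 on the minus strand for Mcm6 (replication), at chr13:100786487-100786616 on the minus strand for Ccnb1 (mitosis), at chr10:69352913-69353042 on the minus strand for Cdk1 (mitosis) and at chr13:51645102-51645231 on the plus strand for Cks2 (mitosis). Capitals mark CCAAT (or ATTGG, its reverse), the CHR letters TTTGAA or TTTAAA (or TTCAAA), and the E2F letters TTTGGCGC, TTTCCCGC, TTTCGCGC or TTTGCCGC with their reverses. In the first capital run of Mcm6, TTTGGCGC and GCGCGAAA overlap.
Mcm6: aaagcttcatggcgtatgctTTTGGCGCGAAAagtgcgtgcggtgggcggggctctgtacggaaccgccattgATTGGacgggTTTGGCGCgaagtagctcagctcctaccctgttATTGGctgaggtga
Ccnb1: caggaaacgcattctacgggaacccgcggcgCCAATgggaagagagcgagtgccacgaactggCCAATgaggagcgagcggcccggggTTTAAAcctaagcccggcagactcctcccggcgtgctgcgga
Cdk1: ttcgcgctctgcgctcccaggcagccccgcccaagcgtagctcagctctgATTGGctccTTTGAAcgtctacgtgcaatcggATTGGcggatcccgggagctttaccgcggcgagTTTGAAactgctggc
Cks2: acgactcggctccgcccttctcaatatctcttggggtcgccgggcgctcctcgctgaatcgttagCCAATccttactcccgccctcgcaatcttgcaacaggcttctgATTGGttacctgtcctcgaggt

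Mcm6 holds E2F letters and CCAAT boxes and no CHR letters. Ccnb1 and Cdk1 hold CCAAT boxes and CHR letters. Cks2 holds CCAAT boxes but neither CHR nor E2F letters in this window. Over windows of 250 bases before and 50 bases after the start, a RefSeq promoter was found for 11 of 14 replication members (12 promoters) and 14 of 18 mitosis members (14 promoters). CHR letters stood in 11 of the 14 mitosis promoters (78.6%) and 5 of the 12 replication promoters (41.7%), against 27.6% of all 32851 RefSeq promoters of that length. E2F letters stood in 1 of the 14 mitosis promoters (7.14%), that of Cdk1, and in 41.7% of the replication promoters, against 2.26% of all. CCAAT stood in 85.7% and 83.3%, against 37.4% of all. These are matches of letters in a window, not measured binding sites.

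After filtering, 12076 LPS and 8314 LPS_MCZ cells were kept, with 89048976 and 68005975 unique molecular identifiers (UMIs, each counting 1 captured RNA molecule) and medians of 5809 and 6180 UMIs per cell. Clustering without cell cycle genes gave 27 clusters, which marker genes grouped into 19 classes, and 14 of these had at least 50 cells in each library. A class name means cells that resemble that type by its markers (neutrophil-like and so on), since the cells carry no annotation by the authors in the files used. Each class that the results below turn on had at least 7 of its listed markers raised over other clusters. Neutrophils were 56.0% and 58.3% of cells, and their class joined 7 clusters. Clusters 6 and 18 held cells of few UMIs and are called by number, as are cluster 9 (neutrophils with granule genes such as Camp and Ltf), cluster 20 (nonclassical monocyte markers with Pecam1 among its leading genes) and cluster 21 (B cell and plasma cell markers). The 2 libraries shared 243 kept cell barcodes. In 43 of these pairs the LPS_MCZ cell had over 10 times the UMIs of the LPS cell, and in 2 pairs the reverse held. The LPS_MCZ cells above 30000 UMIs included 33 shared ones of 191 in all. These 33 held 19.6% of the library's UMIs of 15 mitosis members (all but Hmgb2, Stmn1 and Cks2) and 10.6% of its replication UMIs. All 191 held 65.1% of these mitosis UMIs and 45.8% of the replication UMIs. In the LPS library, 148 cells above 30000 UMIs held 49.1% and 36.8%. The sums of both libraries thus rested largely on few deep cells. Whether shared barcodes are the same cells was not tested. Results that move with them are given with all cells, without both cells of each shared barcode, and without only the lower-UMI cell of each. The last choice kept 99.3% of the LPS and 99.8% of the LPS_MCZ replication UMIs, so it could hardly move the library sums.

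**Figure D1:**
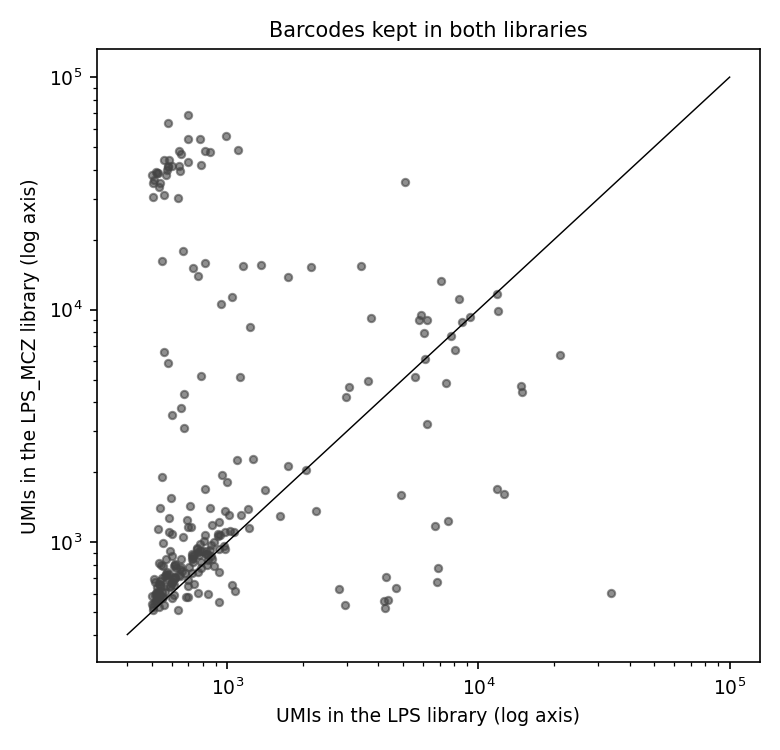
Each of the 243 points is a cell barcode kept in both libraries, with its UMIs in the LPS library on the x axis and in the LPS_MCZ library on the y axis (both log axes). The line marks equal UMIs, and the group at the upper left holds deep LPS_MCZ cells whose barcode had few UMIs in the LPS library.

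Levels are UMIs per 1000000 UMIs of the library or class (CPM). The ratio is log2 of LPS_MCZ over LPS with 1 CPM added to each, and a gene with at least 20 UMIs over both libraries counts as measured. Beyond 0.5 on this scale, in either direction, is called past the fold. The interval of a ratio is taken from the counts with no CPM added, so at low levels it is not centred on the printed ratio. All intervals are 95% and cover counting error only. Several UMIs of a gene can come from the same cell, so they are narrower than the true uncertainty, and variation between mice is not in them.

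Over all cells, the summed replication members stood at 175 CPM in the LPS library and 188 CPM in the LPS_MCZ library. The log2 ratio was 0.10, with an interval of 0.06 to 0.13. No replication member of 14 was past the fold, where 4.4% of 17566 measured genes were higher and 2.72% lower. The 6 MCM helicase subunits had ratios from 0.01 (Mcm4) to 0.23 (Mcm7). Pcna, the sliding clamp, had 4849 and 3819 UMIs, or 54.5 and 56.2 CPM. Its binding partner Pclaf was at 13.6 and 12.5 CPM, a ratio of -0.12. Ribonucleotide reductase makes deoxynucleotides. Its subunit Rrm2, which dividing cells make in S phase, had 559 and 587 UMIs, or 6.28 and 8.63 CPM. That ratio of 0.40, with an interval of 0.29 to 0.63, was the highest of the 14. The other subunit, Rrm1, had a ratio of 0.12. Thymidine kinase Tk1 was at 0.26 and thymidylate synthase Tyms at -0.07. Geminin (Gmnn), which stops DNA from being licensed again, was at 0.08, and cyclin E2 (Ccne2), which acts at the entry to S phase, at 0.10. Without the shared barcodes the sum of replication members was 174 and 170 CPM, a ratio of -0.04, and without only the lower-UMI cells it was 0.10.

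Among the mitosis members, Cks2 differed most between the libraries. Cks2 (ENSMUSG00000062248), on the plus strand of chr13:51645232-51650660 (GRCm38), encodes a small subunit of cyclin-dependent kinase complexes. It had 4644 LPS and 7204 LPS_MCZ UMIs, or 52.2 and 106 CPM, and was found in 15.1% and 30.1% of cells. The log2 ratio was 1.01, with an interval of 0.97 to 1.08. Cks2 was the only member of 32 past the fold over all cells, which is no larger a share than the 4.4% of all measured genes that were higher. The other 17 lay between -0.26 and 0.42. The lowest was Tpx2, a spindle assembly factor, at 8.91 and 7.26 CPM, and the highest was Stmn1, a protein that destabilises microtubules, at 10.5 and 14.4 CPM. Mki67, which coats mitotic chromosomes and is used to mark dividing cells, stood at 48.6 and 48.3 CPM, a ratio of -0.01. Top2a, the topoisomerase that untangles chromosomes, stood at 36.6 and 33.5 CPM, a ratio of -0.12.

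Cyclin-dependent kinase 1 and its cyclins, the engine of mitotic entry, had ratios of 0.06 for Cdk1, -0.09 for Ccna2, -0.18 for Ccnb1 and -0.12 for Ccnb2. The chromosomal passenger proteins Birc5, Aurkb and Cdca8 were at -0.12, 0.12 and 0.11. The kinetochore proteins Cenpe, Cenpf and Bub1 were at 0.07, 0.06 and 0.03. Nusap1, which bundles spindle microtubules, was at 0.02, and Ube2c, which helps destroy the B cyclins, at -0.08. Hmgb2 is a chromatin protein that many cells outside the cycle also make. It was found in 77.5% and 77.8% of cells, at 563 and 502 CPM, so it and Stmn1 were left out of the mitosis sums.

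The sum over the remaining 16 mitosis members was 241 and 289 CPM, a ratio of 0.26 with an interval of 0.23 to 0.29. Without Cks2 as well, the 15 others summed to 189 and 183 CPM, a ratio of -0.05 with an interval of -0.08 to -0.01. All 18 members, Hmgb2 and Stmn1 included, summed to 814 and 805 CPM, a ratio of -0.02. The sign of the mitosis sum therefore depended on which of these 3 genes it held. Without shared barcodes the ratio of the 16 members was 0.10, and without only the lower-UMI cells it was 0.26. Without shared barcodes the 15 members stood at 187 and 149 CPM, a ratio of -0.33, and without only the lower-UMI cells at 188 and 182 CPM, a ratio of -0.04. With the class shares of the LPS library applied to both, the ratios were 0.30 for replication, 0.33 for the 16 mitosis members and 0.07 for the 15. With the LPS_MCZ shares the replication ratio was 0.26. Cluster 21, with a replication ratio of 1.54, was 2.49% of LPS and 1.31% of LPS_MCZ cells. Its 5 highest LPS_MCZ cells held 49.3% of its replication UMIs in that library. How much each class added to these weighted ratios was not tested.

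The classes spanned a far wider range than the all-cell levels of the 2 libraries. Within some classes the libraries also differed widely, as in cluster 21, with replication members at 361 and 1054 CPM. In the LPS library, the summed replication members stood at 384 CPM in classical monocytes, 402 CPM in alveolar macrophages, 341 CPM in T cells, 392 CPM in natural killer (NK) cells and 627 CPM in conventional dendritic cells, against 20.2 CPM in neutrophils and 18.8 CPM in erythroid cells. The 15 mitosis members stood at 589 CPM in classical monocytes, 355 CPM in alveolar macrophages, 243 CPM in T cells and 686 CPM in conventional dendritic cells, against 26.1 CPM in neutrophils. The counting intervals of the replication sum overlapped among classical monocytes, NK cells and alveolar macrophages, so these 3 are not ordered. Vascular endothelial cells and fibroblasts held replication members at 123 and 184 CPM with few UMIs of the 15 mitosis members (26 and 17 UMIs). Classical monocytes were 7.30% and 7.58% of cells and held 51.1% and 50.5% of the UMIs of the 15 mitosis members. They held 35.8% and 35.0% of the replication UMIs, and alveolar macrophages 20.3% and 27.7%.

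**Figure D2:**
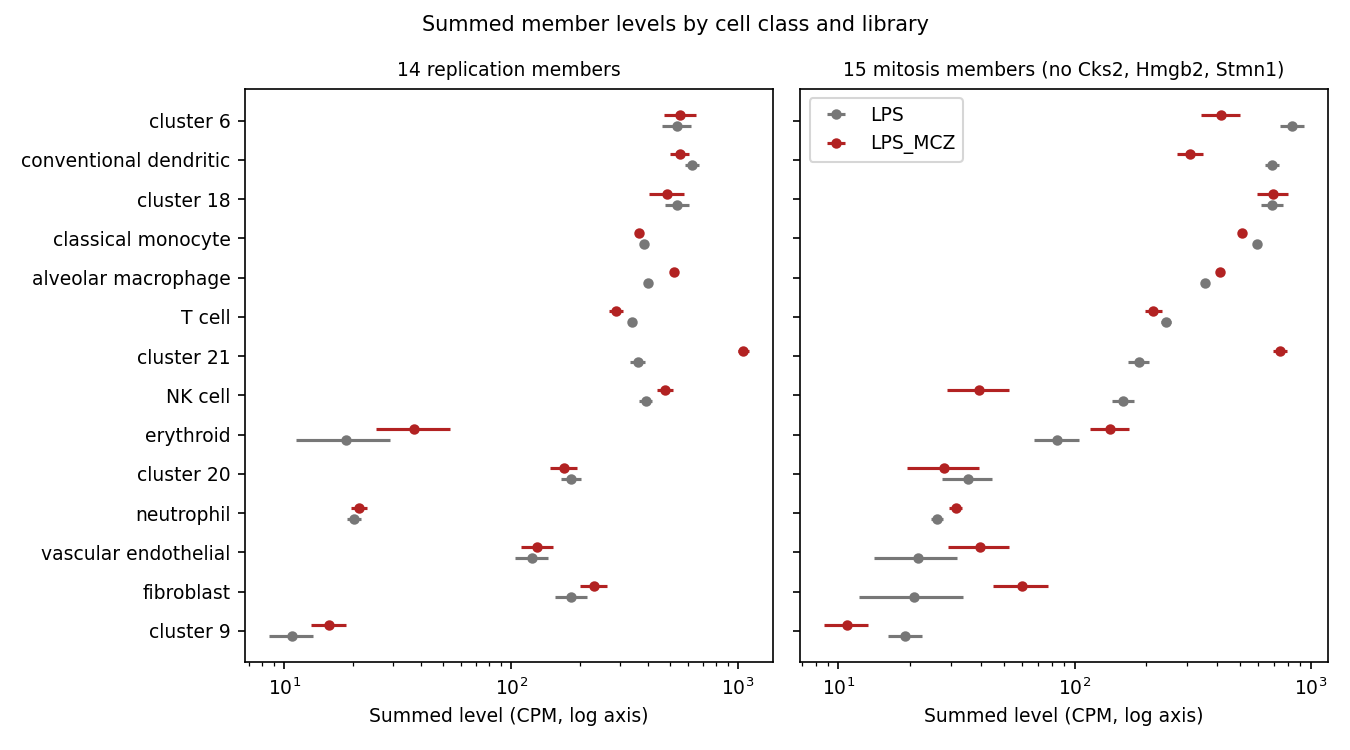
Summed levels in CPM (log axis) of the 14 replication members (left) and of 15 mitosis members (right) in 14 cell classes, for the LPS library in grey and the LPS_MCZ library in red. Points are the levels of the 2 libraries and bars are 95% Poisson intervals; neutrophils and cluster 9 lie far to the left of monocytes and macrophages in both panels.

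In neutrophils, Cks2 stood apart from the other members. It had 2207 UMIs in 6762 LPS neutrophils and 4718 UMIs in 4845 LPS_MCZ neutrophils, or 56.1 and 162 CPM. It was found in 12.6% and 32.4% of neutrophils, and in 6.65% and 19.5% once every cell was thinned to 2000 UMIs. The log2 ratio was 1.52, with an interval of 1.46 to 1.61. Cks2 was the only member of 28 measured in neutrophils that was past the fold, where 13.4% of 12554 measured genes were higher and 4.16% lower. The members' medians were 0.14 for 13 replication and 0.18 for 15 mitosis genes, beside 0.13 over all measured genes.

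LPS neutrophils lay mostly in clusters 0, 1, 5 and 10 and LPS_MCZ neutrophils mostly in clusters 3 and 8, so the Cks2 level was also taken within each of the 7 clusters. In cluster 0, led by the chemokine genes Ccl4 and Cxcl2, Cks2 was at 80.7 and 206 CPM. In cluster 1, with S100a9 and Cxcr2 among its leading genes, it was at 38.1 and 101 CPM. In cluster 2, led by stefin genes, it was at 72.8 and 235 CPM. All 3 clusters held more Cks2 in the LPS_MCZ library, with ratios of 1.34, 1.38 and 1.68. In cluster 3 the levels were 110.3 and 255 CPM, in cluster 5 they were 44.2 and 96.4 CPM, and in cluster 10 they were 38.8 and 82.8 CPM, with ratios of 1.20, 1.11 and 1.07. Cluster 8 had only 10 LPS UMIs of Cks2, against 967, and its ratio of 2.39 had an interval of 1.56 to 3.51. In all 7 clusters the LPS_MCZ library had the higher level.

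Outside the neutrophil class, Cks2 had 168 and 360 UMIs in cluster 9 (21.8 and 43.9 CPM, ratio 0.98). Cluster 20 held 164 and 221 UMIs (82.6 and 182 CPM, ratio 1.13). Vascular endothelial cells held 12 and 62 UMIs, a ratio of 2.27. These 3 groups differed in the same direction as neutrophils, but classical monocytes did so by much less, with 51.6 and 57.4 CPM (ratio 0.15). Alveolar macrophages held 403 and 510 UMIs, a ratio of 0.55, which was 0.44 in their cluster 11 and -0.32 in their cluster 23. Erythroid cells held 26 and 33 UMIs, a ratio of 0.66 with an interval of -0.10 to 1.48. In T cells the ratio was 0.48, which joined a ratio of 1.11 in cluster 12 (89 and 83 UMIs, 20.5 and 45.4 CPM) with -0.00 in cluster 14 (171 and 67 UMIs). The interval in cluster 14 was -0.43 to 0.41, and the difference between the clusters was not tested. The ratio was 0.20 in NK cells, 0.00 in cluster 21 and -0.16 in conventional dendritic cells. In the low-UMI clusters 6 and 18 it was -0.33 and 0.01. Fibroblasts, with 20 and 14 UMIs, were at -0.74. The share of cells with a Cks2 UMI, thinned to 2000 UMIs, was 7.33% and 7.56% in classical monocytes, 3.17% and 1.49% in fibroblasts and 0.704% and 12.1% in vascular endothelial cells. The median depths of these 3 classes before thinning were 14423 and 16623.5 UMIs, 4890 and 5927 UMIs, and 3423 and 2848.5 UMIs. None of the classes is known to lack Cks2, so how much of these shares is free RNA was not tested. Mast cells or basophils numbered only 9 and 11 and had 143 and 120 UMIs of Cks2. Platelets or megakaryocytes (58 and 29 cells) had 3 and 42, and alveolar type 2 cells (48 and 42 cells) 25 and 5. These classes had too few cells to be compared.

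**Figure D3:**
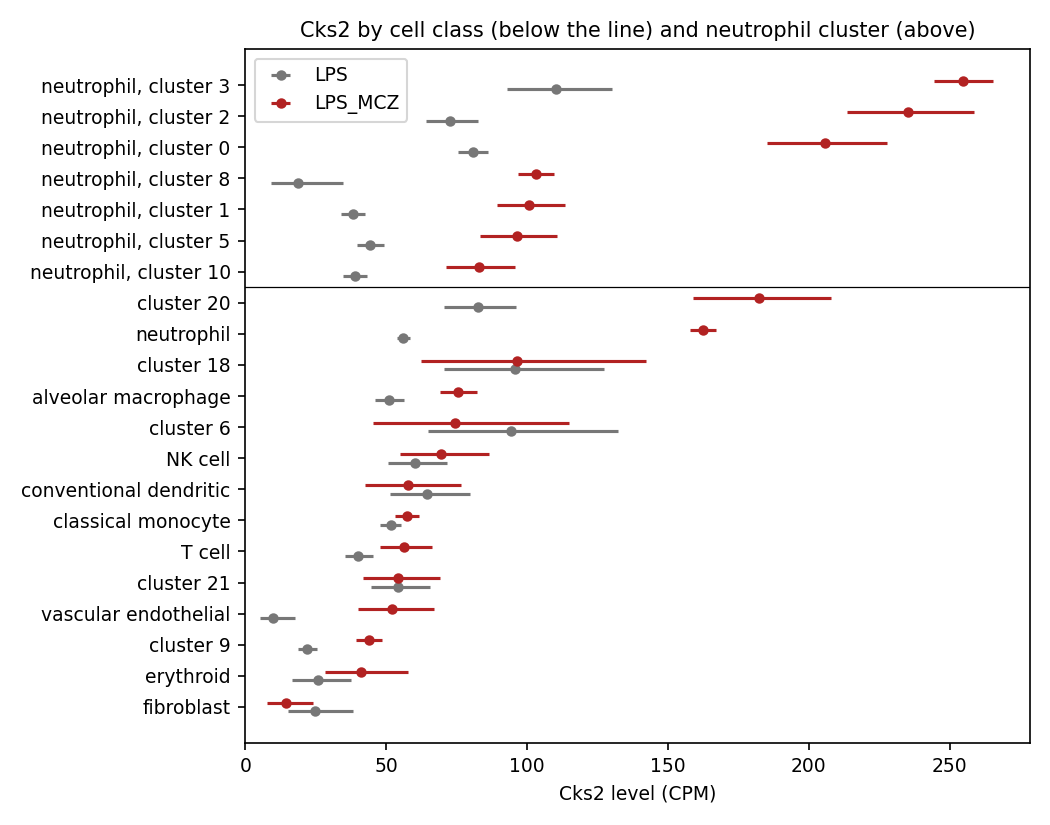
Cks2 level in CPM by cell class and, above the line, by neutrophil cluster, for the LPS library in grey and the LPS_MCZ library in red, with 95% Poisson intervals as bars. The red point lies to the right of the grey point in each of the 7 neutrophil clusters, whereas the points of classical monocytes and cluster 21 lie close together.

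Apart from Cks2, Hmgb2, Mki67 and Pcna, the members had few UMIs in neutrophils, and 4 of 32 (Tyms, Ccna2, Cenpe and Bub1) were not measured there. Hmgb2 was at 631 and 539.6 CPM and in 82.7% and 80.4% of neutrophils, a ratio of -0.23. Mki67 had 740 and 654 UMIs, or 18.8 and 22.5 CPM, whereas Top2a had 70 and 64. There were thus 10.6 and 10.2 Mki67 UMIs per Top2a UMI in neutrophils, against 0.894 and 0.943 in classical monocytes, 0.733 and 1.26 in T cells and 0.437 and 0.574 in cluster 21. The ratio of these genes differed between classes within each library. It is not a comparison of the levels of Mki67 and Top2a, since how well each RNA was captured was not measured and intron counting is not given. In cluster 9, whose granule genes mark younger neutrophils, Hmgb2 was at 883 and 783 CPM, and the 15 mitosis members at 19.2 and 10.8 CPM. Of 3 replication members measured in cluster 9, 1 was higher (Rrm1, with 9 and 27 UMIs), and of 4 mitosis members 1 was higher (Cks2) and 1 lower (Mki67, with 87 and 52 UMIs), where 12.1% of measured genes were higher and 10.4% lower.

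Classical monocytes held the largest share of the mitosis UMIs. No member was past the fold in this class (0 of 14 replication and 0 of 18 mitosis members, where 5.56% of 12384 measured genes were higher and 4.62% lower). The medians were -0.05 and -0.19, beside 0.04 over all measured genes. A ratio below 0 was found for 15 of 18 mitosis members, where 5379 of 12384 measured genes were below 0. Top2a had 1739 and 1273 UMIs (119 and 104 CPM, ratio -0.19). Ube2c had 1001 and 679 UMIs (68.6 and 55.5 CPM, ratio -0.30). Tpx2 was the lowest, with 29.6 and 20.8 CPM, a ratio of -0.49 and an interval of -0.74 to -0.29. Of the 3 members above 0, Stmn1 was at 0.37, Cks2 at 0.15 and Cdca8 at 0.04. Among the replication members, Pclaf was at -0.29 and Mcm2 at -0.30, and Rrm2 at 0.31.

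The summed replication members of classical monocytes were at 384 and 366 CPM, a ratio of -0.07 with an interval of -0.13 to -0.01. The 16 mitosis members were at 640.2 and 570.5 CPM, a ratio of -0.17 with an interval of -0.21 to -0.12. Without shared barcodes these ratios were -0.31 and -0.46, and without only the lower-UMI cells they were -0.07 and -0.17. The class held 10 shared barcodes in the LPS library and 39 in the LPS_MCZ library. The direction was the same with and without these cells, while the size was not.

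**Figure D4:**
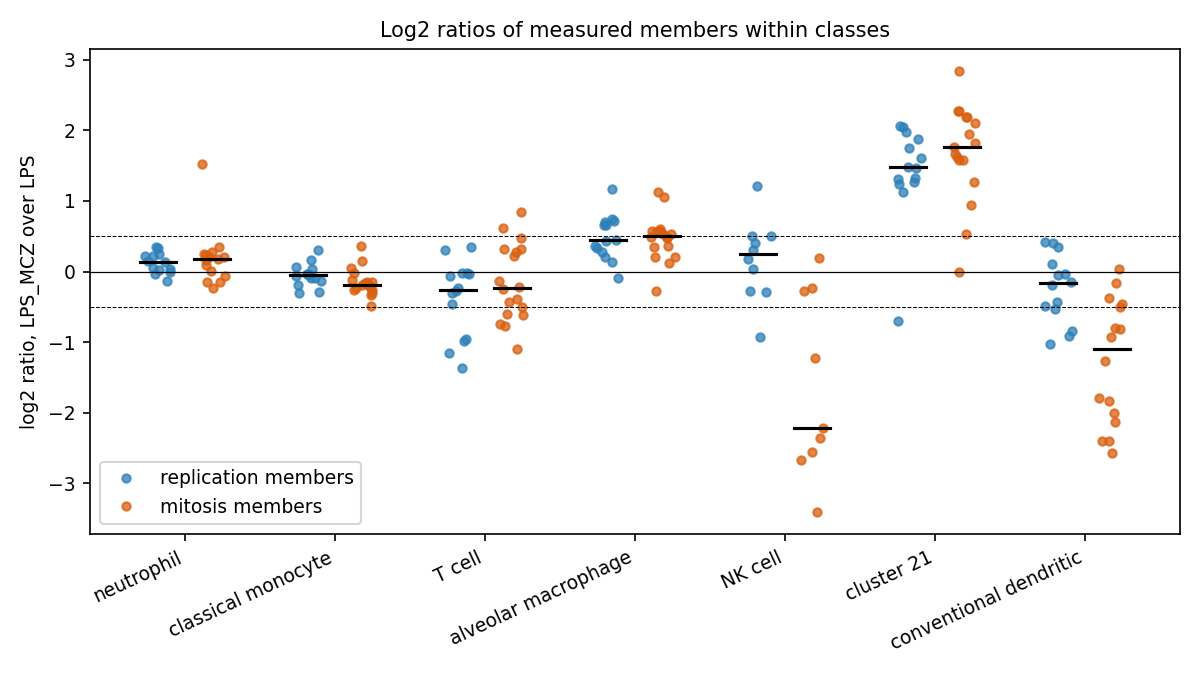
Log2 ratio of LPS_MCZ over LPS for each measured member in 7 cell classes, replication members in blue and mitosis members in orange, with a black bar at each median and dashed lines at -0.5 and 0.5. Alveolar macrophages and cluster 21 lie mostly above 0, conventional dendritic cells mostly below, and the single high point of neutrophils is Cks2 at 1.52.

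In alveolar macrophages, the resident phagocytes of the air spaces, most members were higher in the LPS_MCZ library. The replication members summed to 402 and 523 CPM, a ratio of 0.38 with an interval of 0.31 to 0.45. The 16 mitosis members summed to 406 and 489 CPM, a ratio of 0.27 with an interval of 0.20 to 0.34. Past the fold and higher were 6 of 14 replication and 9 of 18 mitosis members and none was past it and lower, where 14.2% of 11498 measured genes were higher and 6.58% lower. The medians were 0.44 and 0.51, beside 0.04 over all measured genes.

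Tk1, which salvages thymidine for DNA synthesis, had 34 and 74 UMIs in alveolar macrophages, a ratio of 1.17 with an interval of 0.74 to 1.98. Helicase subunits Mcm7 and Mcm2 were at 0.74 and 0.70, Pclaf at 0.71, Rrm2 at 0.66 and Ccne2 at 0.65. These 6 genes were the replication members past the fold. Of the mitosis members, Stmn1 was at 16.6 and 37.4 CPM (ratio 1.13), and the spindle checkpoint kinase Bub1 had 23 and 48 UMIs (ratio 1.05). Birc5, Cenpf, Cenpe, Cdca8, Cks2, Cdk1 and Ube2c lay between 0.53 and 0.60. Mki67 went the other way, at 146 and 120.0 CPM, a ratio of -0.28, and was found in 52.7% and 45.5% of these macrophages (17.7% and 15.8% when thinned). Top2a was found in 7.97% and 16.1%, with a ratio of 0.48. There were 3.34 and 1.95 Mki67 UMIs per Top2a UMI.

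Several values bear on the macrophage result. Without shared barcodes the mitosis ratio was -0.01 and the replication ratio 0.31, and without only the lower-UMI cells they were 0.27 and 0.38. Thinned to 2000 UMIs per cell, they were 0.15 and 0.03, and with the highest doublet scores removed they were 0.10 and 0.30. The class joined cluster 11, with 298 and 103 cells, and cluster 23, with 66 and 176, so the libraries drew on different clusters. Within cluster 11 the mitosis members were at 340.4 and 427 CPM (ratio 0.33) and the replication members at a ratio of 0.12. Within cluster 23 the mitosis members were at 733.5 and 532 CPM (ratio -0.46) and the replication members at 0.05. Mitosis members past the fold were 6 of 18 higher in cluster 11, where 9.28% of measured genes were higher and 7.28% lower. In cluster 23, 6 of 18 were lower, where 15.9% of measured genes were higher and 7.08% lower. The higher mitosis sum was thus seen within cluster 11 and not within cluster 23. The replication sum was at 365 and 398 CPM in cluster 11 and at 589 and 609 CPM in cluster 23. Both of these replication ratios, 0.12 and 0.05, were below the 0.38 of the class. Of 14 replication members, 2 were higher and 1 lower past the fold in cluster 11, and 3 higher and 1 lower in cluster 23. Without shared barcodes the cluster 11 and cluster 23 mitosis ratios were 0.39 and -0.97.

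T cells were fewer in the LPS_MCZ library, 317 against 941 cells. The replication members summed to 341 and 288 CPM (ratio -0.24) and the 16 mitosis members to 283 and 271 CPM (ratio -0.06). Past the fold and lower were 4 of 14 replication members and 6 of 18 mitosis members, and 2 mitosis members were higher, where 8.42% of 11220 measured genes were higher and 6.52% lower. The 4 lower replication members were Pclaf (191 and 29 UMIs, ratio -1.36), Tyms (73 and 12), Mcm5 (78 and 15) and Gmnn (119 and 24). Helicase subunit Mcm4, with 326 and 132 UMIs, was at -0.02. The lower mitosis members were Ccnb1, Tpx2, Birc5, Ccnb2, Ube2c and Top2a, from -1.09 to -0.50. Cenpf (ratio 0.85) and Stmn1 (ratio 0.62) were higher. Members of the same process thus lay on both sides of 0. The mitosis sum of T cells turned direction with the processing, with ratios of 0.27 when thinned, 0.35 at a coarser clustering and 0.24 with cell cycle genes left in for clustering, and the replication sum was at 0.03 at the coarser clustering.

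The 2 T cell clusters went in opposite directions. Cluster 12, led by Bach2, Satb1 and Lef1, which are known from resting T cells, had mitosis members at 73.7 and 208 CPM, a ratio of 1.48 with an interval of 1.28 to 1.72. There 10 of 11 measured mitosis members were higher past the fold, where 11.0% of measured genes were higher and 7.24% lower, with Mki67 at 42 and 72 UMIs and Cenpe at 7 and 20. Cluster 14, with Ctla4 and Ikzf2 among its leading genes, had mitosis members at 712 and 409.5 CPM, a ratio of -0.80 with an interval of -0.97 to -0.63. There 13 of 17 measured mitosis members were lower, where 11.2% of measured genes were higher and 13.7% lower, with Top2a at 332 and 44 UMIs. Few cells held these UMIs. The 5 T cells with the most mitosis UMIs had 53.4% of the class total in the LPS library and 69.1% in the LPS_MCZ library.

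NK cells showed the replication and mitosis genes apart. The replication members were at 392 and 477 CPM (ratio 0.28, interval 0.13 to 0.44) and the 16 mitosis members at 221 and 109 CPM (ratio -1.02, interval -1.32 to -0.73). Mcm6 had 280 and 206 UMIs, or 127 and 181 CPM, and was found in 47.1% and 50.4% of NK cells. Past the fold were 3 of 10 measured replication members higher (Mcm2, Mcm6 and Tyms) and 1 lower (Gmnn), where 9.97% of 9048 measured genes were higher and 10.0% lower. Of 9 measured mitosis members 6 were lower and none higher. Mki67 had 71 and 7 UMIs and Top2a 116 and 25, whereas Ube2c had 24 and 1, Birc5 22 and 1, Cdk1 19 and 1 and Cenpf 21 and 0. The mitosis result rested on few cells, since 1 LPS cell held 27.5% of these UMIs and 5 held 60.8%. Thinned to 2000 UMIs the mitosis ratio was 0.24, and with a stricter cell filter it was 0.42, both on the other side of 0. The cells that passed the stricter filter were also clustered and named anew, so the filter and the class membership changed together. The replication ratio was -0.15 at a coarser clustering.

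Cluster 21, with B cell and plasma cell markers (Igkc, Cd79a, Jchain), had the highest ratios of the classes for the replication sum. Its 301 and 109 cells held replication members at 361 and 1054 CPM, a ratio of 1.54 with an interval of 1.41 to 1.68. The 16 mitosis members were at 241 and 795 CPM, a ratio of 1.72 with an interval of 1.56 to 1.88. Past the fold and higher were 13 of 14 replication and 16 of 17 measured mitosis members, where 15.3% of 9351 measured genes were higher and 11.0% lower. Mcm5 had 36 and 92 UMIs, Rrm2 33 and 85, and Gmnn 41 and 99, with ratios from 1.98 to 2.06. Mki67 had 52 and 144 UMIs, Top2a 119 and 251, and Cenpf, a kinetochore protein, 12 and 58. The exceptions were Tk1, lower at 15 and 5 UMIs, and Cks2, level at 54.2 CPM in both libraries. In the LPS_MCZ library 1 cell held 29.5% of the mitosis UMIs and 5 held 80.7%, against 17.5% and 53.8% in the LPS library. For replication the 5 highest LPS_MCZ cells held 49.3%. Thinned to 2000 UMIs per cell the ratios were 1.06 for replication and 1.07 for mitosis.

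Conventional dendritic cells, with 84 and 52 cells, had a lower level of mitosis members in the LPS_MCZ library. The 16 mitosis members were at 751 and 365 CPM, a ratio of -1.04 with an interval of -1.23 to -0.85, and the replication members at 627 and 552 CPM, a ratio of -0.19. Past the fold and lower were 12 of 16 measured mitosis and 4 of 14 replication members, and none was higher, where 15.9% of 8424 measured genes were higher and 18.6% lower. Cenpf had 44 and 4 UMIs, Ube2c 39 and 4, Birc5 64 and 7 and Top2a 245 and 43. Mki67, with 159 and 103 UMIs, was at 0.03. The 5 highest cells held 75.3% and 66.1% of the mitosis UMIs. With the cell cycle genes left in for clustering, the mitosis and replication ratios of the class were 0.20 and 0.52, above 0.

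The remaining classes held fewer members with 20 UMIs. In vascular endothelial cells 4 replication members were measured, 1 of them higher, and of 4 mitosis members 3 were higher and 1 lower, where 14.5% of measured genes were higher and 11.7% lower. Those higher mitosis members included Mki67, with 7 and 25 UMIs, and Stmn1, with 48 and 72. In erythroid cells no replication member was measured, and Ube2c had 31 and 57 UMIs and was found in 14.7% and 15.4% of cells. Of 5 mitosis members measured there, 3 were higher and 2 lower, where 18.3% of measured genes were higher and 22.5% lower. In fibroblasts the replication members stood at 184 and 231 CPM. Cluster 6 had 0 of 9 mitosis members higher and 5 lower, where 12.9% and 24.6% of measured genes were, and cluster 18 had 2 of 14 higher and 3 lower, where 20.8% and 15.5% were. In cluster 20, 2 of 8 replication members were higher and 2 lower, and 1 of 4 mitosis members higher and 1 lower, where 12.2% and 8.62% of measured genes were. Clusters 6 and 18 held 112 and 85, and 60 and 50, of the shared barcodes.

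A level in CPM does not say how many cells carry these genes, so cells with UMIs of at least 3 members of a group were counted after thinning each cell to 2000 UMIs. Shallower cells were left out, 1302 in the LPS and 712 in the LPS_MCZ library. At least 3 of the 16 mitosis members were found in 110 of 10774 LPS cells (1.02%, exact interval 0.84% to 1.23%) and 65 of 7602 LPS_MCZ cells (0.855%, interval 0.661% to 1.09%). At least 3 replication members were found in 93 cells (0.863%) and 75 cells (0.987%). Both held in 38 and 23 cells. The intervals of the mitosis shares overlapped. They cover counting error over cells only, and the difference between the libraries was not tested. Without thinning the shares were 2.74% and 2.93% for mitosis and 6.08% and 6.43% for replication.

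Classical monocytes made up 55 of the 110 and 32 of the 65 cells with several mitosis members, and alveolar macrophages 15 and 15. Within monocytes the share was 6.40% (interval 4.86% to 8.25%) and 5.14% (interval 3.55% to 7.19%), and within alveolar macrophages 4.23% and 5.38%. For replication, alveolar macrophages were at 6.48% and 8.60% and monocytes at 3.61% and 3.38%. In cluster 21 the replication share was 2.26% (interval 0.835% to 4.86%) and 10.0% (interval 4.90% to 17.6%), 6 of 265 and 10 of 100 cells. No cell of the neutrophil class had 3 members of either group at 2000 UMIs, 0 of 6557 and 0 of 4701 cells. This allows shares of up to 0.0458% and 0.0638% at that depth only. In cluster 9, the neutrophils with granule genes, 1 of 820 LPS and 0 of 880 LPS_MCZ cells had 3 mitosis members. Unthinned, 4 of 6762 and 11 of 4845 neutrophils had 3 mitosis members (0.0592% and 0.227%), and 3 and 0 had 3 replication members. Cks2 is 1 of the mitosis members counted. It was in 6.65% and 19.5% of the thinned neutrophils.

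Members of the mitosis group were found in the same cells in monocytes, where they are abundant enough to look. Cells with at least 3 other mitosis members were set against cells with no other mitosis member and no other replication member. Hmgb2 and Stmn1 did not count towards either kind. In LPS monocytes thinned to 2000 UMIs, Top2a was in 40 of 53 cells (75.5%) of the first kind and in 6 of 509 cells (1.18%) of the second. Mki67 was in 78.4% of the first kind and 3.64% of the second. Ube2c was in 56.6% of the first kind, and in 1 of 504 cells of the second. The genes with wider use were found more often than Top2a, Mki67 and Ube2c in cells of the second kind. Hmgb2 was in 98.2% and 40.8%, Cks2 in 34.0% and 5.81%, and Pcna in 34.5% and 14.7%. Among replication genes, Pclaf was in 38.2% of the first kind and in 6 of 509 cells of the second, and Mcm4 in 5.45% and 3.45%. The LPS_MCZ monocytes showed the same order for Top2a (70.4%, against 6 of 362 cells) and Mki67 (61.5% and 6.32%). There Ube2c was in 27.6% of the first kind, Cks2 in 15.6% and 6.81%, and Pcna in 21.9% and 15.4%. In alveolar macrophages of the second kind, Mki67 was still in 13.8% and 13.2% of cells, and Top2a in 0 of 156 and 0 of 125.

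**Figure D5:**
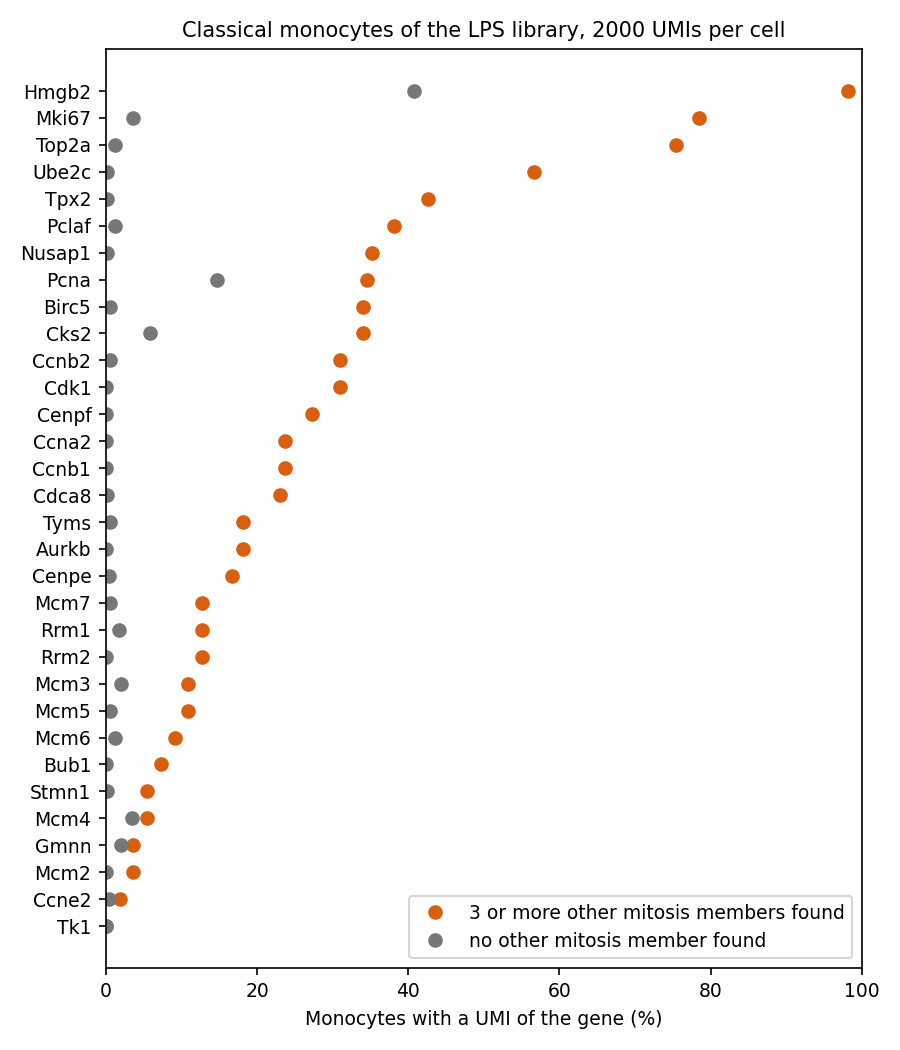
Percent of LPS classical monocytes, thinned to 2000 UMIs, with a UMI of each gene. Orange points are cells with at least 3 other mitosis members. Grey points are cells with no other mitosis and no other replication member, although the legend names mitosis members only. Top2a and Mki67 are in over 70% of the first kind and under 4% of the second, while Hmgb2 is frequent in both.

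Other genes of the pathway also had few ratios past the fold over all cells. Of 53 further replication genes 1 was higher past the fold and none lower, with a median ratio of 0.10, and of 56 further mitosis genes none was past it, with a median of 0.00. Over all measured genes 4.4% were higher and 2.72% lower, so these counts are at or below the background. The exception was E2f2, an E2F transcription factor, with 1598 and 2961 UMIs, or 17.9 and 43.5 CPM, a ratio of 1.23 and an interval of 1.19 to 1.37. In neutrophils E2f2 was at 18.7 and 57.1 CPM, a ratio of 1.56, and in alveolar macrophages and classical monocytes its ratios were 1.08 and 0.82. The next highest replication genes were Pola2, a subunit of DNA polymerase alpha, at 0.42 (1.05 in neutrophils), and the kinase Cdk2 at 0.36, and the lowest were deoxycytidine kinase (Dck) at -0.42, Dbf4 at -0.28 and E2f8 at -0.11. Slbp, which binds histone mRNA, and Usp1 had the highest levels beside E2f2 and were at -0.04 and -0.02. Of the mitosis genes, Prc1, which bundles microtubules of the midzone, was at 0.34 (0.90 in neutrophils), Anln at 0.25 and Mybl2 at 0.24. Lamin B1 (Lmnb1), of the nuclear lamina, was at 584 and 437 CPM (ratio -0.42), Plk1 at -0.32, Pttg1 at -0.26, the centromeric histone Cenpa at -0.14 and Smc4 at -0.00. Of 19 genes that restrain or set the pace of the cycle 1 was past the fold, Rbl2, a relative of the retinoblastoma protein, at 0.58 (1.05 in neutrophils). The inhibitor Cdkn1a was at 417 and 384 CPM, a ratio of -0.12, the antiproliferative Btg2 at 0.07, Tob1 at 0.49 and the inhibitor Cdkn1c at 0.41. The lowest of this list were Btg1 at -0.45, cyclin D2 (Ccnd2) at -0.40 and the inhibitor Cdkn2b at -0.34. Within alveolar macrophages 23 of 53 further replication genes were higher and none lower, and of 53 measured further mitosis genes 19 were higher and 2 lower. By macrophage cluster, 9 of 52 further replication genes were higher and 3 lower in cluster 11, and 12 of 50 higher and 2 lower in cluster 23. Of 49 measured further mitosis genes, 22 were higher and 0 lower in cluster 11. In cluster 23, 4 of 49 were higher and 18 lower. Within cluster 21, 42 of 50 and 39 of 44 were higher and none lower. In conventional dendritic cells 19 of 44 and 19 of 32 were lower, and 1 and 2 higher. The background shares for these classes and clusters are those given with the members.

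The genes whose levels across classes were most like each sum differed between the groups. Over 28 points (14 classes in 2 libraries), which share library and depth, the replication sum was most like Hspd1 (Pearson r 0.977), Gtf3a (0.976), Fkbp4 (0.973), Ssrp1 (0.973), Nap1l1 (0.972), Banf1 (0.970), Rsl1d1 (0.970) and Anp32b (0.968), on log2 levels with 10 CPM added. Hspd1 is a mitochondrial chaperone, and Ssrp1 and Nap1l1 are histone chaperones. The mitosis sum was most like Arhgap11a (0.898), Trip13 (0.854), 2310022A10Rik (0.842), Ska1 (0.840), Knstrn (0.833), Cdkn3 (0.816), Plxdc1 (0.814) and Umps (0.794). Trip13 acts in the spindle checkpoint, and Ska1 and Knstrn act where spindle fibres meet the chromosomes. These correlations describe the 28 points and carry no test.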

How the data were processed

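Single-cell RNA of lung tissue was captured with 10x 3' V3 chemistry and sequenced on a NovaSeq 6000, per the labels' protocols. The deposited values are raw UMI counts per gene and cell made by the authors with Cell Ranger 7.0.0, per the file headers, with bcl2fastq 2.20 and mm10, per the submitters' processing notes. Not given in the sources used here are intron counting and strand settings. The files held 12577 LPS and 8500 LPS_MCZ barcodes with 90597705 and 68467793 UMIs.

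Cells with at least 200 genes, 500 UMIs and at most 20% mitochondrial UMIs were kept. The doublet caller Scrublet (in scanpy) marked 2 and 0 cells, so it had not worked and all cells stayed in. Removing the 1167 and 553 highest scores, 0.8% per 1000 cells, was an alternative. Clustering used scanpy 1.11.5 and Leiden (igraph 0.11.9, resolution 1.0) on 2000 variable genes, 30 components and 15 neighbours without batch correction. From the variable genes 160 cell cycle and 102 histone genes were left out. A cluster was named when at least 3 markers of 1 of 25 marker sets were raised by log2 1.0 or more over the 25th percentile of clusters (20 CPM added), and its leading 10 genes did not go against the name. A cluster whose median UMIs were under 1 part in 3 of its own sample's stayed a number.

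Levels were UMIs per 1000000 (CPM) over the library or class, ratios log2 of LPS_MCZ over LPS after adding 1 CPM. Intervals are 95% exact (Poisson, conditional binomial, Clopper-Pearson), and the limit at 0 is 3 counts. Measured means at least 20 UMIs, and past the fold beyond 0.5 (log2). Cells were thinned with seed 1. The ratio script was tested on simulated data. All 32 members were described. Genes outside the members were named by size of ratio among those with at least 50 UMIs, by level, and by likeness to the sums. The likeness was limited to genes reaching 20 CPM in some class, a limit added after the data were seen. The members and lists were chosen with earlier results of these data known. With 1 library per group no test was run. Python 3.11.15, numpy 2.4.6, scipy 1.17.1, pandas 2.3.3 and matplotlib 3.10.9 were used.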

Additional observations from a re-analysis of the deposited data

Results flagged for a closer look

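Pairs of classes or clusters whose summed mitosis members (16, without Hmgb2 and Stmn1) differed between the libraries in opposite directions are given here. The difference between the members of each pair was not tested, since each has 1 library per group. Cluster 21 had a log2 ratio of 1.72 and conventional dendritic cells -1.04. T cell cluster 12 had a ratio of 1.48 and T cell cluster 14 a ratio of -0.80. Alveolar macrophage cluster 11 had a ratio of 0.33 and cluster 23 a ratio of -0.46. In cluster 21 and in conventional dendritic cells, 5 cells held 80.7% and 66.1% of the LPS_MCZ mitosis UMIs.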

How the results depend on the processing

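No paired analysis was possible because each group has 1 library. Of 206 values under alternatives for the main sums and shares, 136 stayed within the counting interval of the reported value and 70 did not, and no cause of a move was tested. In 15 cases the ratio lay on the other side of 0. In 3 of these the reported ratio was past the fold: NK cell mitosis, -1.02 to 0.42 with the stricter cell filter (500 genes, 1000 UMIs, 10% mitochondrial) and to 0.24 when thinned, and conventional dendritic mitosis, -1.04 to 0.20 with cell cycle genes left in for clustering. The other 12 had reported ratios between -0.24 and 0.28 and were replication over all cells, in neutrophils (also -0.0030 at resolution 2.0), T cells, NK cells and dendritic cells, and mitosis in T cells and alveolar macrophages.

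Without both cells of shared barcodes, ratios over all cells were -0.040 (replication), 0.10 (mitosis, 16 members) and -0.33 (15 members), in monocytes -0.31 and -0.46 (replication, mitosis), and in alveolar macrophages -0.0073 (mitosis). Leaving out only the lower-UMI cell, an alternative added after seeing the data, moved none of these sums beyond its interval. The cells left then still held 99.3% and 99.8% of the replication UMIs of the LPS and LPS_MCZ libraries. For the 15 mitosis members they held 99.3% and 99.8%. This alternative could thus hardly move the library sums, and it does not show that they are stable. With the highest doublet scores removed, the ratios were 0.063, 0.20 and -0.10 over all cells, 0.30 and 0.10 in alveolar macrophages, 1.39 for cluster 21 replication and -0.37 for dendritic replication. Thinned to 2000 UMIs per cell, they were -0.094 for neutrophil replication and 0.063 for its 15 mitosis members, -0.38 for monocyte mitosis, -0.085 and 0.27 in T cells, 0.028 and 0.15 in alveolar macrophages, and 1.06 and 1.07 in cluster 21.

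With the stricter filter, neutrophil mitosis was 1.10 and Cks2 1.38, monocytes -0.15 and -0.27, and T cell mitosis -0.50. For the classes, this filter came with a new clustering and naming of the cells that passed it. At resolution 0.5, monocytes were -0.14 and -0.25, T cells 0.034 and 0.35, and NK replication -0.15. At resolution 2.0, neutrophil mitosis was 1.04 (0.089 for 15 members) and Cks2 1.33, monocytes -0.23 and -0.22, and dendritic cells 0.084 and -0.26. With cell cycle genes left in, neutrophil mitosis was 1.11 (0.097 for 15 members) and Cks2 1.42, monocytes -0.15 and -0.24, T cells 0.073 and 0.24, NK mitosis -0.0024 and dendritic replication 0.52. With 5 CPM added, library Cks2 was 0.96. Weighted by LPS_MCZ class shares, the replication ratio was 0.26.

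Shares of cells with several members moved with the number required and the depth. For replication (LPS, LPS_MCZ) they were 2.69% and 2.34% at 2 members, 0.288% and 0.237% at 5, 0.463% and 0.448% thinned to 1000 UMIs, and 6.08% and 6.43% unthinned. For mitosis they were 1.82% and 2.13% at 2, 0.65% and 0.474% at 5, 2.74% and 2.93% unthinned, 1.53% and 1.51% with Hmgb2 and Stmn1, and 0.499% for LPS_MCZ thinned to 1000. Dendritic cells gave no value with the stricter filter, thinned or at resolution 0.5, nor cluster 9 with cell cycle genes left in. Depth limits the sparse classes most, and differences between mice of a group cannot be measured here.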
